A study of Mus musculus with 6 samples.

Results

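The genes described are 8 members of the S100 family: S100a1, S100a6, S100a10, S100a11, S100a13, S100a14, S100a16 and S100g. They were taken by symbol from the deposited gene tables, where each matched 1 gene, out of 53379 genes in all. S100 proteins are small proteins that bind calcium through EF hands, mostly act as dimers, and pass a calcium signal on by attaching to other proteins in the cell. Several are also released from cells. In pancreatic epithelium the family is known for members that are abundant in ductal tumours, and several members have been reported to bind p53 itself.

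Total RNA was sequenced from 6 organoid cultures, that is, tumour epithelial cells of the pancreas kept in domes of matrigel, a basement membrane extract. All came from C57/Bl6 KPC mice, in which Cre driven by the Pdx1 promoter (active in pancreatic progenitors) recombines the conditional alleles, in heterozygous and LOH libraries alike. The heterozygous libraries (n = 3) had Trp53LSLR172H/+, a mutant and a wild-type allele of p53. The LOH libraries (loss of heterozygosity, n = 3) had Trp53LSLR172H/-, with the wild-type allele gone. Lines 6, 23 and 34 each gave 1 library of either genotype. In their descriptions, LOH libraries alone carry an added suffix that no label explains, and what it stands for cannot be told apart from genotype. Mouse age is not given, and nothing says whether the cultures of a line were more than 1 derivation, so the tests measure the spread between these 6 libraries.

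Libraries held from 13680458 to 27917277 expected counts (estimated reads per gene), and 0.102% to 0.246% of them fell on the 8 genes. Trp53 itself had 80.01 CPM (counts scaled to library size by TMM) in heterozygous and 57.8 CPM in LOH libraries, with a log2 fold change of -0.47 (edgeR adjusted p 0.227), and its gene counts do not separate the mutant from the wild-type transcript. Cell type markers were checked against the label. The summed CPM of 8 epithelial genes ran from 5247 to 6084 in heterozygous and from 5176 to 11407 in LOH libraries. Of 10 fibroblast markers 9 stayed under 1 CPM in every library, the exception being S100a4, and 8 of 10 leukocyte markers did. The exceptions were Cd14, a receptor for bacterial lipopolysaccharide, at 43.9, 47.3 and 44.1 CPM in heterozygous and 19.7, 40.5 and 31.4 CPM in LOH lines 6, 23 and 34, and Cd68. The neutrophil marker Ly6g reached 119 CPM in LOH line 34. The part of these in the S100 values was not tested. In a culture, fewer cells that make a transcript and less transcript per cell cannot be told apart.

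None of the 8 S100 genes passed an adjusted p of 0.05 between LOH and heterozygous libraries (0 of 8; edgeR quasi-likelihood test, Benjamini-Hochberg adjustment over 14537 tested genes), against 5.21% of all tested genes. All 8 passed the filter on low counts. At an unadjusted p under 0.05 there were 3 of 8, namely S100a1, S100a13 and S100g, against 25.3% of all genes. With a block for organoid line 0 of 8 passed, against 1.47% of all genes. DESeq2 called 2 of 8, S100a1 and S100g, against 15.7% of all genes. The fitted log2 fold change was above 0 in 7 of the 8, with a median of 0.93, against 7850 of 14537 genes above 0 and a median of 0.06 over all genes.

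**Figure D1:**
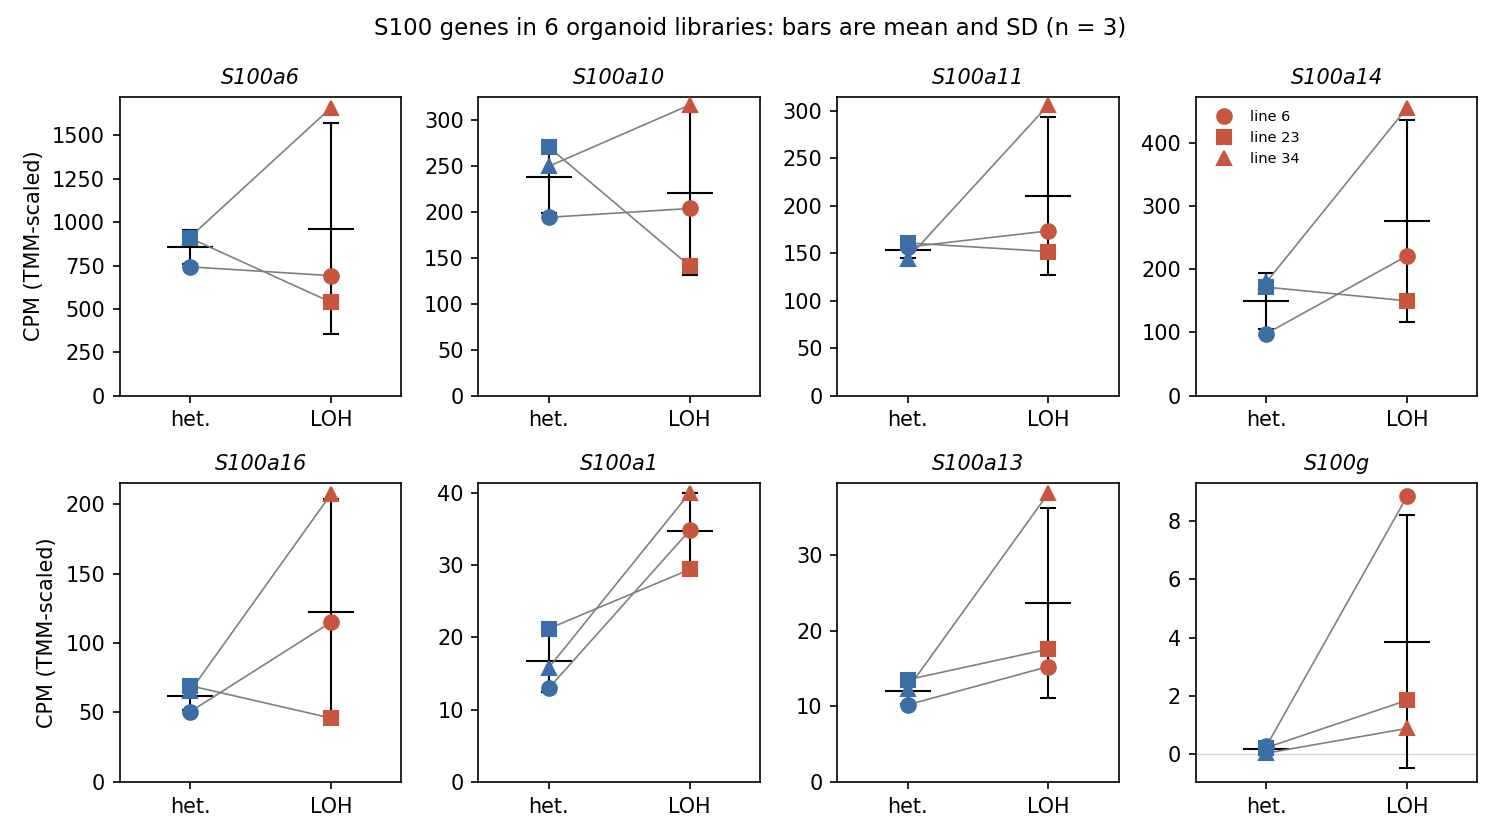
CPM (TMM-scaled) of each S100 gene in the heterozygous (blue) and LOH (red) libraries, with symbols for organoid lines 6, 23 and 34 and grey lines joining the libraries of a line; bars are the mean and SD (n = 3). S100a1, S100a13 and S100g do not overlap between the groups, and LOH line 34 holds the highest value in 7 of the 8 panels.

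The genes differed widely in level. TPM values, which divide by transcript length and so allow genes to be compared, placed S100a6 first in every library, at 2357, 2108 and 2428 TPM in the heterozygous libraries of lines 6, 23 and 34 and at 1815, 1100 and 3114 TPM in the LOH libraries. S100a6 is a calcium sensor known for high levels in dividing and ductal cells, and its transcript was among the 69 most abundant genes of each library. It made up between 55.3% and 64.4% of the TPM of the 8 genes. S100a10 and S100a11 followed with mean levels of 501 and 488 TPM in heterozygous libraries, and their ranges overlapped. S100a14 had a mean of 233 TPM there, S100a16 71.8 TPM, S100a1 35.9 TPM, S100a13 24.0 TPM and S100g 0.62 TPM, and from S100a11 down each range lay clear of the next. In LOH libraries the order was looser. S100a11 (503 TPM) overlapped with S100a10 (354 TPM), and S100a10 with S100a14 (317 TPM). So did S100a16 (108 TPM) with S100a1 (57.7 TPM), S100a1 with S100a13 (35.5 TPM) and S100a13 with S100g (10.9 TPM). S100a6 still lay clear of S100a11, and S100a14 clear of S100a16. These levels depend on the genes they are scaled over. Rescaled per length over protein-coding genes only, every mean more than doubled while the order of the genes stayed, and S100a6 turned from lower in LOH (means of 2298 and 2010 TPM in heterozygous and LOH libraries) to higher (4886 and 5583).

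**Figure D2:**
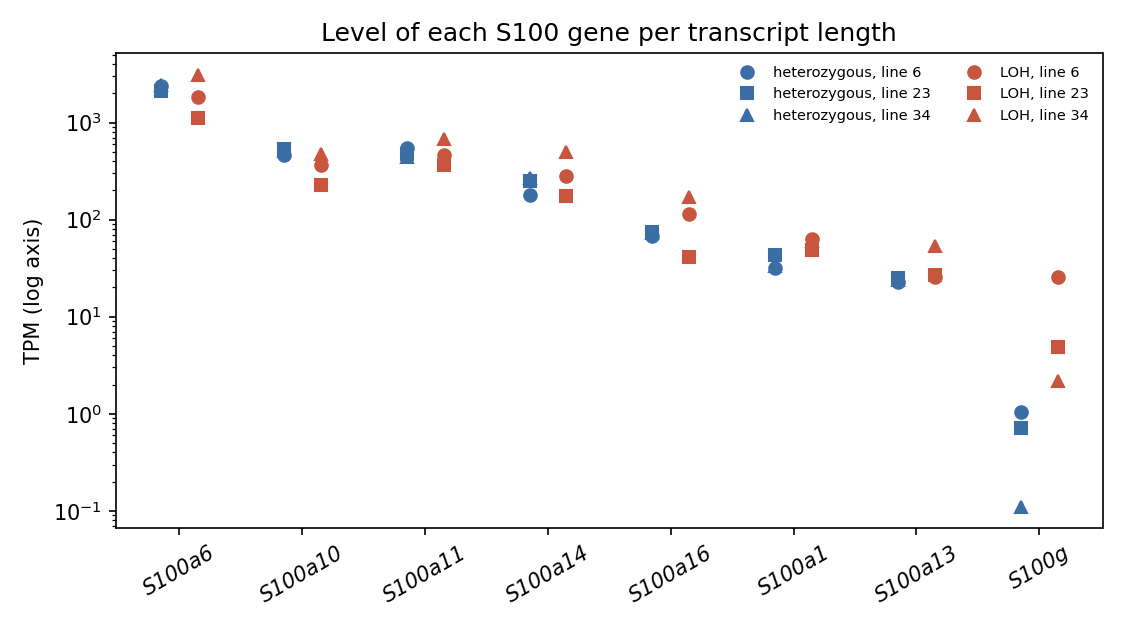
TPM of each S100 gene on a log axis, with 1 point per library (blue heterozygous, red LOH, symbols for organoid lines). S100a6 is the highest in all 6 libraries, and S100g spans the widest range, from 0.11 to 25.8 TPM.

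The largest difference was in S100g, which encodes the small vitamin D-dependent calcium carrier of absorptive gut epithelium and has a calcium-buffering role in transport across the cell. It lies on chromosome X (162961992 to 162964599, minus strand, GRCm38; ENSMUSG00000040808.4), within an intron of Ctps2 on the opposite strand. In lines 6, 23 and 34 the heterozygous libraries held 8, 3 and 1 counts (0.267, 0.223 and 0.0334 CPM), and the LOH libraries held 152, 49 and 19 counts (8.85, 1.85 and 0.885 CPM). All 3 LOH libraries lay above all 3 heterozygous ones, with LOH line 6 far above the other two. A count of 3 corresponded to 0.1 to 0.223 CPM, so the heterozygous values of lines 23 and 34 were at or under that floor. The means were 0.174 ± 0.124 and 3.86 ± 4.35 CPM (SD, n = 3 per group). Between them the log2 fold change was 4.47 (SE 1.11; adjusted p 0.0654 in edgeR), and with the block 4.27 (SE 0.63; adjusted p 0.0508 in edgeR). Neither passed. The call came through without LOH line 34 (4.94, adjusted p 0.0468 in edgeR, with 5.27% of all genes called) and with no filter on low counts (adjusted p 0.0314, with 3.62%), and the log2 fold change was 2.94 when LOH line 6 was left out. In limma it was 2.34 on log2(TPM + 1) and 3.52 on log2(TPM + 0.1), scales that shrink changes of low genes. Adjusted p-values ran from 0.000357 (DESeq2) to 0.264 over 18 alternatives.

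Within lines, S100g was 33.2-fold higher in LOH line 6 (95% counting interval 16.4 to 78.2). It was 8.31-fold higher in line 23 (2.68 to 41.7) and 26.5-fold higher in line 34 (4.21 to 1101), the last resting on 1 heterozygous count. These intervals are exact, from the 2 counts of a line, and cover counting error only. Ctps2, whose reads could fall on the S100g interval if strand were ignored, had 15.9, 22.9 and 18.7 CPM in heterozygous and 16.2, 17.03 and 20.8 CPM in LOH libraries of lines 6, 23 and 34. It had a log2 fold change of -0.09 (edgeR adjusted p 0.824).

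A stretch of the RefSeq window of S100g (GRCm38.p6, chrX:162964594-162964849, minus strand) is shown because this gene had the largest difference. It runs from 250 bases before the annotated start to the end of the capitals. Capitals mark the only match among 6 motifs searched, the letters of a TATA box (TATAAA). They begin at the annotated start and so lie within the gene, not before it.
S100g: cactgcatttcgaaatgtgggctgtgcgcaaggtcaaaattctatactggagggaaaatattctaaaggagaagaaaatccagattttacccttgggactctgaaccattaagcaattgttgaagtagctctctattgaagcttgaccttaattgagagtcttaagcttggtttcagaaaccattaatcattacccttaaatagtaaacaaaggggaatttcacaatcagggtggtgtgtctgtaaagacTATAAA
Of 32851 mouse windows of 300 bases, 13.6% held TATAAA on either strand. The direct repeat bound by the vitamin D receptor, in its consensus form, was in 2 of them and in none of the S100 windows, which says only that these letters are not in these windows.

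S100a1 was the most uniform of the higher genes. Its product is a calcium sensor best known from heart and muscle. S100a1 (ENSMUSG00000044080.9; chromosome 3, 90511034 to 90514392, minus strand) had 12.98, 21.2 and 15.8 CPM in heterozygous lines 6, 23 and 34 and 34.8, 29.4 and 40.0 CPM in those with LOH. The groups did not overlap, as was the case for 32.8% of all tested genes. The means were 16.7 ± 4.19 and 34.7 ± 5.3 CPM (SD, n = 3 per group). Between them the log2 fold change was 1.06 (SE 0.24; adjusted p 0.0555 in edgeR, and 0.143 with the block), just short of the threshold. Over 19 alternatives its adjusted p ran from 0.00399 (DESeq2) to 0.332. It passed without LOH line 6 (1.03, adjusted p 0.0494 in edgeR, where 16.2% of all genes passed) and where genes needed 10 counts in every library (adjusted p 0.0486, with 5.26% of all genes).

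S100a13 starts 42 bases from the end of the S100a1 annotation and runs the other way, so the genes are divergent neighbours. Its product takes part in the release of growth factors that lack a signal peptide. S100a13 (ENSMUSG00000042312.9; chromosome 3, 90514435 to 90524581, plus strand) had 10.2, 13.5 and 12.3 CPM in heterozygous and 15.3, 17.6 and 38.1 CPM in LOH lines 6, 23 and 34. Again no LOH library fell within the heterozygous range, and line 34 stood highest. The log2 fold change was 0.98 (SE 0.38; adjusted p 0.162 in edgeR, and 0.242 with the block), and 0.45 without LOH line 34. S100a1 was 2.68-, 1.39- and 2.53-fold higher in LOH libraries of lines 6, 23 and 34, and S100a13 1.5-, 1.3- and 3.1-fold higher, so both were above 1 in each line and the order of the lines differed.

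The stretch between the divergent genes (GRCm38.p6, chr3:90514393-90514434, plus strand) is shown because this pair and S100g were the 3 genes higher in every line. The share of all genes higher in every line was not counted. In the same 3 genes every LOH library lay above every heterozygous one, as in 16.4% of all tested genes. The stretch holds 42 bases.
S100a1 and S100a13 gap: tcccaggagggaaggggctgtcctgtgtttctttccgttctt
The RefSeq windows of S100a1 and S100a13 share 204 of 300 bases. Neither held any of the 6 motifs: the TATA box, the CCAAT box (CCAAT), the GC box (GGGCGG), the AP-1 site (TGANTCA), the vitamin D receptor repeat or the p53 half-site. The p53 half-site was in 8.36% of all windows.

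S100a14 and S100a16 lie next to that pair on chromosome 3. S100a14 is an epithelial member linked to cell junctions and migration, and S100a16 a widely expressed member. S100a14 (ENSMUSG00000042306.11; 90526856 to 90528837, plus strand) had 98.1, 171.7 and 179 CPM in heterozygous lines 6, 23 and 34 and 221, 149.99 and 455 CPM in those with LOH. S100a16 (ENSMUSG00000074457.10; 90537254 to 90543151, plus strand) had 50.5, 69.3 and 65.2 CPM and 115, 46.0 and 207 CPM in the same order. In both genes LOH lines 6 and 34 lay above every heterozygous library and LOH line 23 did not. The log2 fold changes were 0.88 (SE 0.44; adjusted p 0.259 in edgeR) for S100a14 and 0.99 (SE 0.49; adjusted p 0.257 in edgeR) for S100a16. Without LOH line 34 they were 0.31 and 0.38, and without LOH line 23 1.18 and 1.38.

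Among the 8 genes, the profiles of S100a14 and S100a16 were the second closest pair, with a root mean square difference of 0.27 on the log2 CPM scale over the 6 libraries after each gene's mean was removed. The closest pair was S100a6 and S100a10, at 0.21.

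S100a6, S100a10 and S100a11 were the abundant genes and showed little mean difference. S100a6 (ENSMUSG00000001025.8; chromosome 3, 90612882 to 90624181, plus strand) had 742, 908 and 914 CPM in heterozygous lines 6, 23 and 34 and 692, 539 and 1659 CPM in LOH libraries. The LOH libraries spread to either side of the heterozygous ones. The means were 855 ± 97.5 and 963 ± 607.5 CPM (SD, n = 3 per group), and the log2 fold change was 0.17 (SE 0.41; adjusted p 0.822 in edgeR). It was -0.48 without LOH line 34, -0.00098 with the block and -0.32 in limma on the TPM scale, so its direction depended on these choices.

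S100a10 encodes the partner of annexin Anxa2 in a complex at the cell membrane that also binds plasminogen. S100a10 (ENSMUSG00000041959.14; chromosome 3, 93555080 to 93564643, plus strand) had 194, 270 and 249 CPM in heterozygous lines 6, 23 and 34 and 203, 141 and 316 CPM in LOH libraries. LOH line 23 was the lowest and LOH line 34 the highest of the 6. The log2 fold change was -0.11 (SE 0.31; adjusted p 0.848 in edgeR), and 0.13 without LOH line 23.

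S100a11, an annexin-binding member found in many epithelia, had an even level in heterozygous libraries. S100a11 (ENSMUSG00000027907.4; chromosome 3, 93520488 to 93526287, plus strand) had 157, 161 and 144 CPM there and 174, 152 and 306 CPM in LOH lines 6, 23 and 34. LOH line 34 alone stood apart. The log2 fold change was 0.45 (SE 0.28; adjusted p 0.358 in edgeR), and 0.08 without LOH line 34. A pseudogene of S100a11 is annotated on chromosome 12, and how RSEM divided any reads that match both is not known, so the S100a11 values are uncertain to that extent.

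The 250 bases before the RefSeq start of S100a11 (GRCm38.p6, chr3:93520246-93520495, plus strand) are shown because they held more motif matches than any other S100 window. Capitals mark 3 GC boxes and 2 AP-1 sites, which do not overlap.
S100a11: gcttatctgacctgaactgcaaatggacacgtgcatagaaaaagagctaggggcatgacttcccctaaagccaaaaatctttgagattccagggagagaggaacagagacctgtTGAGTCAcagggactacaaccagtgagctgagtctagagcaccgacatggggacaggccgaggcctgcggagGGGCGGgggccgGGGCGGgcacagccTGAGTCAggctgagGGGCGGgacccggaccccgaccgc
The GC box was in 35.7% and the AP-1 site in 7.81% of all windows, on either strand. The window at one start of S100a16 also held both. That of S100a6 held a CCAAT box, which 37.4% of windows have. RefSeq windows were matched for 6 of the 8 genes. S100a10 and S100a14 were not matched.

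**Figure D3:**
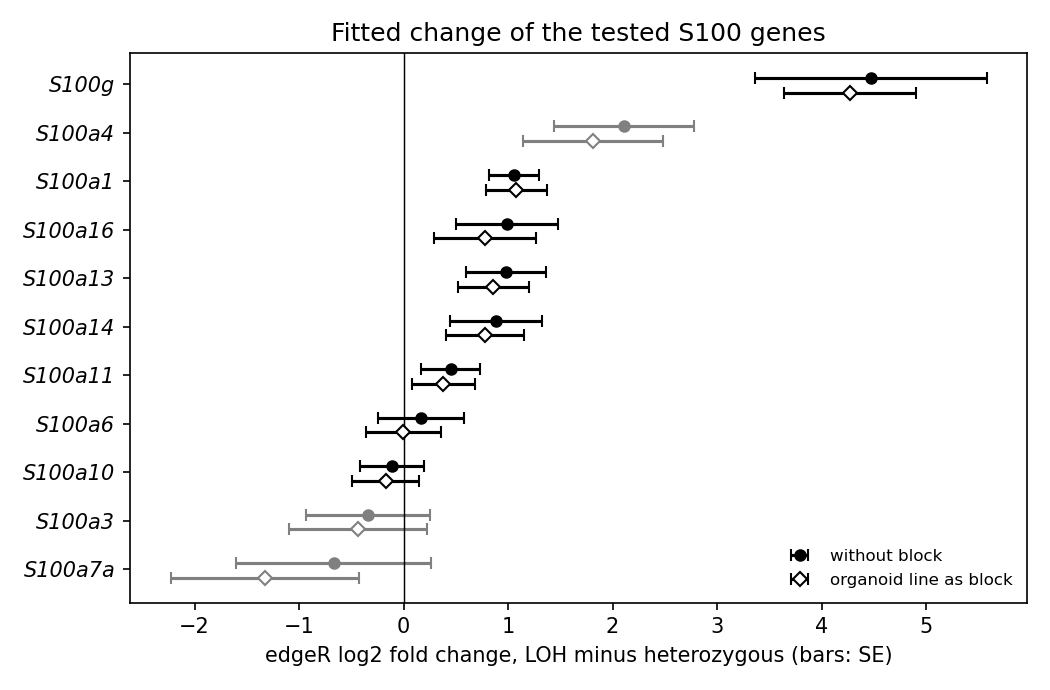
Fitted log2 fold change (LOH minus heterozygous, edgeR, horizontal axis) with its SE for the 8 S100 genes (black) and the 3 other tested S100 genes (grey), without a block (circles) and with a block for organoid line (open diamonds). S100g lies farthest to the right, at 4.47 without and 4.27 with the block, and S100a6 and S100a10 lie next to 0.

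Divided by line, the genes split. By CPM, all 8 were higher in the LOH library in line 34, against 52.4% of all genes. In line 6 there were 7 of 8, against 49.3%, and in line 23 there were 3 of 8, against 51.4%. S100a6 was 1.81-fold higher in LOH line 34 (95% counting interval 1.79 to 1.84) and had a ratio of 0.593 in line 23 (0.579 to 0.608). S100a10 had ratios of 1.05, 0.522 and 1.27 in lines 6, 23 and 34, and S100a11 of 1.11, 0.944 and 2.12. S100a14 was 2.25- and 2.54-fold higher in lines 6 and 34 and had a ratio of 0.874 in line 23 (0.83 to 0.92). S100a16 was 3.18-fold higher in line 34 (3.01 to 3.35) and had a ratio of 0.664 in line 23 (0.609 to 0.723). These ratios are of CPM. By TPM, S100a10 was lower in LOH in every line, with 471 TPM against 507.5 in the heterozygous library of line 34. In line 6, S100a6 (1815 against 2357 TPM) and S100a11 (462 against 552 TPM) were lower in LOH by TPM. The share of all genes higher in a line by TPM was not counted. With 1 library of either genotype in a line, the counting intervals leave out the spread between cultures, and no test of the lines against each other was possible.

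**Figure D4:**
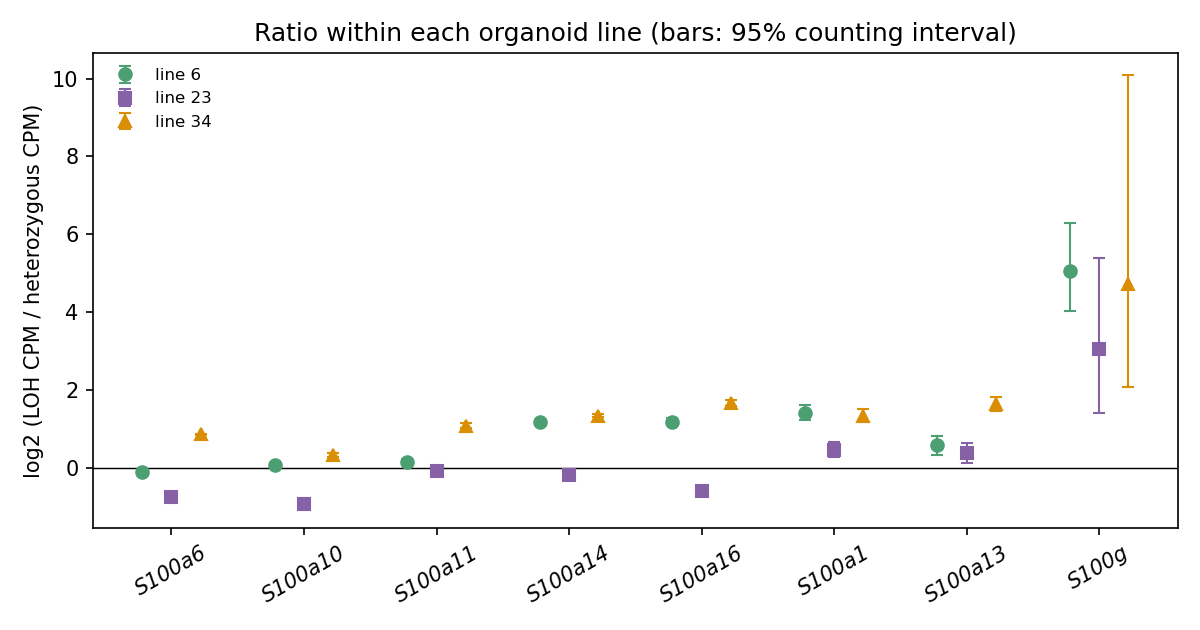
Log2 ratio of LOH to heterozygous CPM within organoid lines 6, 23 and 34 for each S100 gene, with exact 95% counting intervals as bars. All 8 genes lie above 0 in line 34, and 5 of 8 lie below 0 in line 23.

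LOH line 34 held the highest CPM of the 6 libraries in 7 of the 8 genes, against 22.3% of all tested genes, and S100g was the exception. In TPM it was the highest in 5 of the 8, against 10.4% of all genes. Of the 13 other tested genes that lie between the outermost S100 genes of chromosome 3, 6 (46.2%) also had their highest CPM in LOH line 34. LOH line 23 was the lowest library by CPM for S100a6, S100a10 and S100a16 (3 of 8), against 22.4% of all genes. By TPM it was the lowest in 5 of the 8, with S100a11 and S100a14 added. The share of all genes lowest there by TPM was not counted. The spread of log2 CPM was larger among LOH than among heterozygous libraries in 7 of 8 genes, with S100a1 as the exception, and in 79.1% of all genes. Among the 8 epithelial markers, Epcam, Krt7, Krt8, Krt18, Krt19 and Cldn4 were also highest in LOH line 34. Cdh1 (587, 726 and 470 CPM in LOH lines 6, 23 and 34) and Sox9 (40.2, 41.7 and 30.7 CPM) were not, and were highest in LOH line 23. The median log2 ratio of the 8 markers was 0.28, -0.01 and 0.97 in lines 6, 23 and 34. Their summed CPM of 11407 was that of LOH line 34. The part of this in the S100 values was not tested. Krt19, a duct keratin, had 737, 865 and 752 CPM in heterozygous lines 6, 23 and 34 and 1460, 686 and 2782 CPM in LOH libraries. It was the gene most like S100a16 among the 10068 genes whose mean reached 5 CPM, with a root mean square difference of 0.13 on the log2 CPM scale.

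By the same measure over 6 libraries, the pair of genes most like each other member was named. They were Tspan5 (0.07) and Stc2 (0.08) for S100a1, Sfn (0.08) and Dera (0.08) for S100a6, and Psmd8 (0.08) and Nars (0.09) for S100a10. For S100a11 they were Plod2 (0.05) and Mgat4b (0.08), and for S100a13 Borcs6 (0.10) and Arid5a (0.13). For S100a14 they were Pkp1 (0.14) and Tesk2 (0.17), and for S100a16 the second was Atp2c1 (0.22). For S100g they were Sult1d1 (0.36) and Naip1 (0.40), farther off than for any other member. These genes were picked for their profile, so their own calls are no separate evidence.

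The transcript tables showed which forms were counted. S100a11, S100a13 and S100g have 1 annotated transcript each. S100a10-201 took between 99.4% and 99.8% of the S100a10 TPM, S100a16-202 between 96.4% and 97.9% of that of S100a16, and S100a1-201 between 93.1% and 98.3% of that of S100a1. S100a6 was divided between 2 coding transcripts. S100a6-201 took 33.7%, 53.7% and 38.2% of the TPM in heterozygous lines 6, 23 and 34 and 22.7%, 42.5% and 42.7% in LOH libraries, and S100a6-203 most of the rest. For S100a14, S100a14-202 took 60.3%, 62.01% and 66.2% in heterozygous and 69.1%, 66.96% and 65.4% in LOH lines 6, 23 and 34, and S100a14-203 most of the rest. The shares of the genotypes overlapped for both S100a6-201 and S100a14-202. By expected counts in place of TPM, S100a6-201 had the larger mean share, at 57.1% in heterozygous and 50.9% in LOH libraries against 41.7% and 47.5% for S100a6-203, and S100a14-203 had a mean of 15.7% instead of 33.8% in heterozygous libraries. All these shares are estimates by RSEM from reads that transcripts share.

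Position was common to 7 of the 8 genes, which lie on chromosome 3 at the ends of the epidermal differentiation complex, a run of genes for skin barrier proteins. Between S100a1 and S100a10, leaving S100 genes out, 13 genes were tested (92080271 to 93449077). Their median log2 fold change was 0.68, with 1 gene called, against a median of 0.06 over all genes. The called gene was Tchh, a hair and epithelial filament-binding protein, at 1.99 (edgeR adjusted p 0.0449), named after its value was seen. The 20 tested genes before S100a1 had a median of 0.09 and the 20 after S100a10 one of 0.38, with 0 called in either set and 5.21% called over all genes. Several of those after it are near-identical predicted copies that share reads. The genes between S100a1 and S100a10 include Sprr2a1, Sprr2a2 and Sprr2a3, related by name, and whether these share reads was not examined. In lines 6, 23 and 34 the median log2 ratios were 0.76, 0.45 and 0.75 between the outer genes, 0.40, -0.12 and -0.02 before, and 0.19, 0.30 and 0.05 after. The 7 S100 genes on chromosome 3 had medians of 0.58 (S100a13), -0.19 (S100a14) and 1.33 (S100a1), each the value of the gene named. These were below the genes between them in lines 6 and 23 and above them in line 34. All 772 other tested genes of chromosome 3 had medians of 0.18, 0.29 and 0.25 in lines 6, 23 and 34, above the S100 genes in line 23 and below them in lines 6 and 34. No test was made between these sets.

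**Figure D5:**
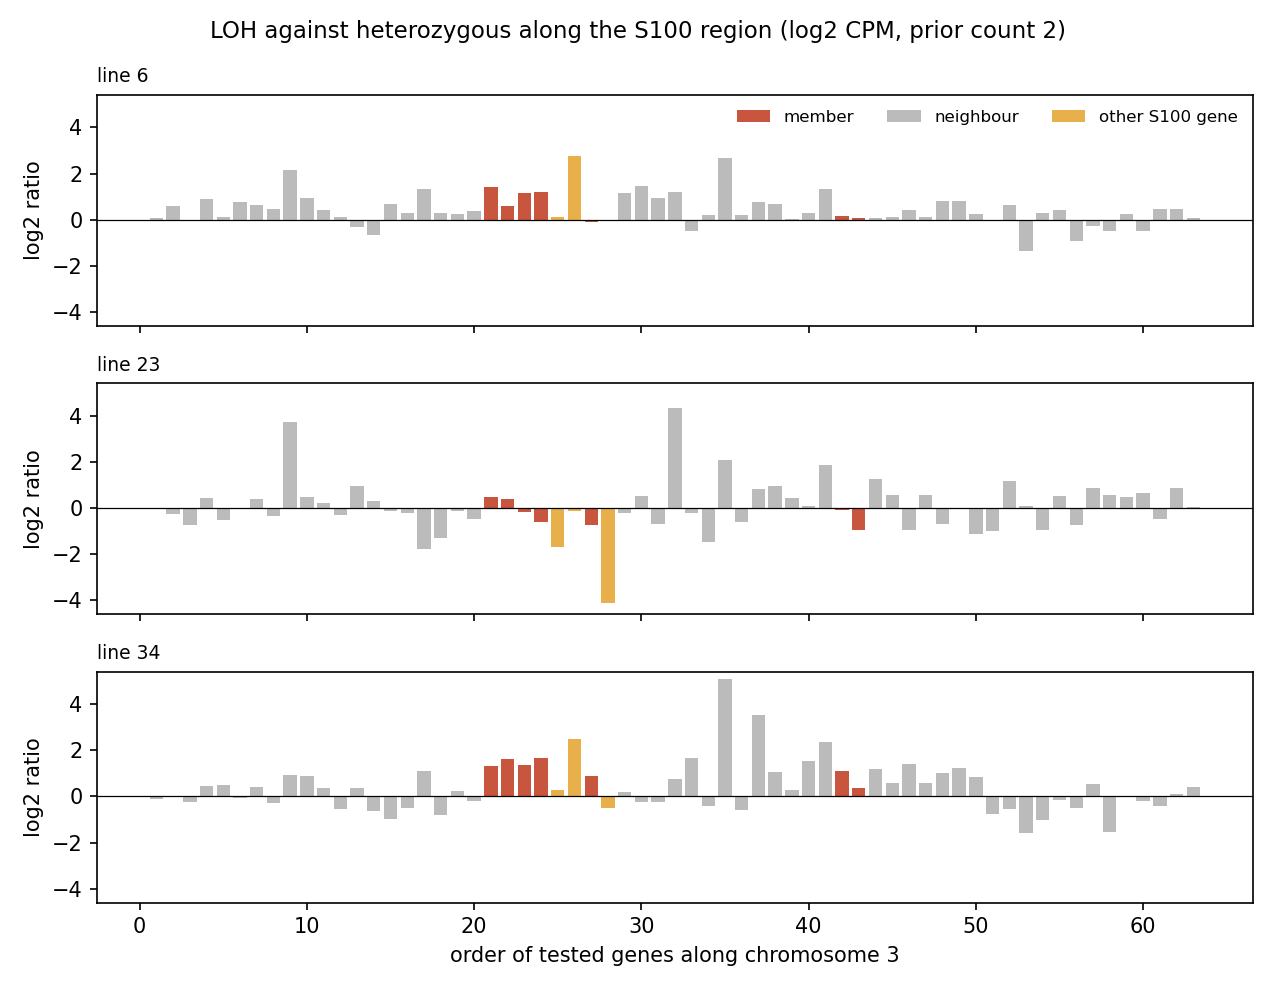
Log2 ratio of LOH to heterozygous CPM (prior count 2) in organoid lines 6, 23 and 34 for tested genes in their order along chromosome 3, with the S100 genes described here in red, other S100 genes in orange and neighbours in grey. In line 34 the red bars are all above 0. There the 20 genes before them have a median of -0.02, and the 13 genes between them, S100 genes left out, one of 0.75.

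Of 12 other S100 genes listed, 9 were in the tables and 3 passed the filter on low counts; 0 of 3 were called (1 at an unadjusted p under 0.05, against 25.3% of all genes, and 1 by DESeq2, against 15.7%). S100a4, a member associated with motile and mesenchymal cells, had 2.4, 3.56 and 4.17 CPM in heterozygous and 16.8, 3.28 and 23.7 CPM in LOH lines 6, 23 and 34. Its log2 fold change was 2.11 (SE 0.67; adjusted p 0.109 in edgeR). It followed S100a14 and S100a16 in being higher in lines 6 and 34 and not in 23, while the collagen genes Col1a1, Col1a2 and Col3a1 stayed under 1 CPM in all libraries. S100a7a, an epithelial member of the skin cluster, had 9.41, 7.79 and 15.7 CPM in heterozygous and 9.2, 0.378 and 11.2 CPM in LOH libraries, with a log2 fold change of -0.67 (edgeR adjusted p 0.679). S100a3 had one of -0.34 (edgeR adjusted p 0.75). S100a8, a subunit of the neutrophil protein calprotectin, reached at most 0.0668 CPM in any library.

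Among annexins and other proteins that S100 members bind, 21 of 22 genes were tested, 2 rose and 0 fell (9.52% called, against 5.21% of all genes), and the median log2 fold change was 0.43. Anxa11, an annexin that binds S100a6, rose from 73.6 ± 4.9 to 154.9 ± 32.0 CPM (SD, n = 3 per group), by a log2 fold change of 1.07 (SE 0.20; adjusted p 0.0352 in edgeR, and 0.109 with the block). Il1a, a cytokine released without a signal peptide, rose from 0.645 ± 0.642 to 12.2 ± 5.38 CPM (SD, n = 3 per group), by a log2 fold change of 4.36 (edgeR, adjusted p 0.0413, and 0.0973 with the block). Anxa10, an annexin of gastric epithelium, had a log2 fold change of 2.77 without (edgeR adjusted p 0.0996) and of 2.61 with the block, where it passed (0.0341). Anxa2, the partner of S100a10, had 967, 1412 and 1197 CPM in heterozygous and 525, 480 and 1697 CPM in LOH lines 6, 23 and 34. Like S100a10, it was highest in LOH line 34 and lowest in LOH line 23, and its log2 fold change was -0.40 (edgeR adjusted p 0.637). The log2 fold changes of Ahnak (0.32), Anxa3 (-0.42) and Anxa4 (0.09), the other abundant genes of the list, did not pass either.

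In the plasminogen system, 7 of 10 genes were tested and 1 was called, lower (14.3% called, against 5.21% of all genes). At an unadjusted p under 0.05 in edgeR there were 4 of 7, against 25.3% of all genes. The median log2 fold change was -0.34. Serpine2, a protease inhibitor, fell from 2.26 ± 0.794 to 0.244 ± 0.0996 CPM (SD, n = 3 per group), by a log2 fold change of -3.22 (SE 0.51; adjusted p 0.025 in edgeR, and 0.0534 with the block). Its LOH values rested on 6, 4 and 5 counts in lines 6, 23 and 34, close to the floor of 3 counts. The abundant genes Eno1 (-0.53), Plaur (-0.34) and Plat (1.48) did not pass. The list for vitamin D and for calcium transport across the cell, not restricted to the gut, had 6 of 13 tested and 0 called. The median was -0.14. At an unadjusted p under 0.05 in edgeR there were 2, against 25.3% of all genes. DESeq2 called 2, against 15.7%. Vdr, the vitamin D receptor, had 3.54, 4.6 and 2.8 CPM in heterozygous and 2.04, 2.91 and 1.49 CPM in LOH lines 6, 23 and 34. Trpv6, the calcium entry channel, had 3 counts in LOH line 6 and 0 in the other libraries, and Slc8a1, a sodium-calcium exchanger, had 0 in all 6. Atp2b1, the calcium pump, had a log2 fold change of 1.49 (edgeR adjusted p 0.119), Cldn2 one of -0.71 (0.0814), Cldn12 one of -0.11 (0.713) and Rxra one of -0.18 (0.664).

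Of 25 other EF-hand genes 20 were tested and 1 was called, higher (5% called, against 5.21% of all genes). The median log2 fold change was 0.12. Sri, a calcium-dependent regulator of calcium release, rose from 60.05 ± 6.13 to 115.0 ± 16.8 CPM (SD, n = 3 per group), by a log2 fold change of 0.94 (SE 0.19; adjusted p 0.0411 in edgeR, and 0.136 with the block). Calm2 (-0.19) and Calm3 (-0.12), which encode calmodulin, and Calu (-0.02), a calcium binder of the secretory pathway, did not pass. Over the 5 lists 4 genes were called, and 0 when heterozygous line 6, 23 or 34 was left out, where edgeR called 0 of all genes (2966, 2637 and 2272 at an unadjusted p under 0.05).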

How the data were processed

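Per the submitters' processing notes, the series used STAR 2.5.2b, RSEM 1.3.0, DESeq2 1.44.0 and FastQC 0.11.5 on GRCm38.p5, with no roles stated, and the labels name a stranded total RNA kit. The strand setting is not given in the sources used here. The deposited expected counts (estimated by the authors for each gene and transcript) need not be whole, and the deposited TPM values are the authors' length-scaled abundances. The deposited normalized signal (expected counts over a size factor) served here only to name genes. The authors' effective lengths, another kind of deposited value, served for a length check. Coordinates came from GENCODE mouse release 21 (GRCm38), and windows from RefSeq.

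Expected counts were rounded, filtered by filterByExpr (14537 of 53379 genes), scaled by TMM and tested two-sided in edgeR 4.0.16 (R 4.3.3, quasi-likelihood F test), at a Benjamini-Hochberg adjusted p of 0.05. The SE is the log2 fold change over the root of F. Alternatives were RLE and upper quartile scaling, other filters, protein-coding genes only, truncated counts, each library or line left out, the line as a block, DESeq2 1.42.0, and limma 3.58.1 on log2(TPM + 1) and log2(TPM + 0.1). Floors are 3 counts and intervals 95%, for counting error only.

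Lines pair the libraries by title. Deviations from the group means correlated at -0.295, 0.00943 and 0.294 across genes in lines 6, 23 and 34. No label states a paired model, so the results first given here have no block. The members and lists were chosen with earlier results of these data known. Named genes were the members, list genes that passed with or without the block (up to 8 a list), the 4 most abundant others of each list and the 2 genes most like each member. Some items that this rule or the labels name are not reported here. Marker lists of the leukocyte, neutrophil, fibroblast, endothelial, glial, acinar and endocrine types were checked.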

Additional observations from a re-analysis of the deposited data

Results flagged for a closer look

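By CPM, the organoid lines went opposite ways beyond counting error in 5 S100 genes. On the log2 ratio scale, line 34 (the highest) exceeded line 23 (the lowest) by 1.61 for S100a6, 1.28 for S100a10, 1.16 for S100a11, 1.53 for S100a14 and 2.26 for S100a16. In each of them the LOH library had the higher CPM of the pair in line 34 and the lower CPM in line 23. The difference was not tested, since a line holds 1 library of either genotype. By TPM, S100a10 was lower in LOH in every line, with 471 TPM against 507.5 in the heterozygous library of line 34. Its lines thus went opposite ways by CPM only.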

How the results depend on the processing

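The count of S100 genes called was 0, and it was 2 with DESeq2, 1 with at least 10 counts in every library (S100a1), 1 with no filter (S100g), and between 0 and 1 when a library was left out. With the replicate block it was 0. Over all genes 757 were called, and the count was 213 with the replicate block, 2281 with DESeq2, 1911 and 1753 with limma on log2(TPM + 1) and log2(TPM + 0.1), between 0 and 2449 with a library left out, and 1422, 0 and 0 without line 6, 23 or 34. Over the related lists 4 were called, and the count was 1 with the block, 14 with DESeq2, 13 and 12 with limma on the same TPM scales, 2 with at least 10 counts in every library, between 0 and 9 with a library left out, and 2, 0 and 0 without line 6, 23 or 34. The log2 fold change of S100a6 turned to -0.32 on both TPM scales, -0.00098 with the block, and -0.43 without line 34, and with a library left out it ran from -0.48 (without LOH line 34) to 0.46. That of S100a10 turned to 0.23 without line 23, and with a library left out it ran from -0.47 to 0.13 (without LOH line 23). The TPM scales moved the median of all genes by -0.37 and -0.43. The cause of these changes was not tested. S100g could not be tested with at least 10 counts in every library. The other 6 S100 genes kept their direction under the alternatives run, S100a11 only just on the TPM scales (0.0033 and 0.0032). On log2(TPM + 1) the others were 0.67 for S100a1, 0.47 for S100a13, 0.33 for S100a14, 0.37 for S100a16 and 2.34 for S100g.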

Other observations

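Ly6g, counted among the neutrophil markers, had 0.1, 0.445 and 5.14 CPM in heterozygous and 9.43, 1.36 and 119 CPM in LOH lines 6, 23 and 34, while the neutrophil genes Elane and Csf3r had 0 counts in all libraries and S100a8 and S100a9 stayed under 1.5 CPM. At a log2 fold change of 4.46 it missed the threshold (edgeR, adjusted p 0.187). Cd68, a lysosomal protein of macrophages that other cells also make, had 1.7, 1.78 and 1.84 CPM in heterozygous and 2.97, 6.95 and 14.7 CPM in LOH lines 6, 23 and 34, with a log2 fold change of 2.21 (edgeR adjusted p 0.0713), while Ptprc, the pan-leukocyte gene, stayed under 1 CPM.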
